A study of Mus musculus with 4 samples.

Results

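The AP-1 transcription factors of the Fos and Jun family were followed through 6 days of β3-adrenergic stimulation of mouse fat. The 7 genes Fos, Fosb, Fosl1, Fosl2, Jun, Junb and Jund were taken by name, through every probe set whose annotation gave one of them as its single symbol. All 7 were on the array, in 9 of its 12422 probe sets against transcripts and among 8251 named genes; Fos and Junb had 2 probe sets each and the others 1. RNA came from epididymal white fat of male C57 BL6 mice aged 3 to 4 months, and each of the 4 arrays was hybridised with one pool of it. One pool was labelled control. The other pools came from mice given the β3-adrenergic agonist CL 316243 at a rate of 3 nmol/hr during 1, 3 or 6 days; the titles of 2 arrays write the number of the compound with its last digits exchanged. How many mice made a pool, and what the control mice received, is not stated in the sources used here.

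Fos and Jun proteins carry a basic DNA-binding stretch next to a leucine zipper, through which they pair. Fos proteins bind DNA as partners of Jun proteins, while Jun proteins can also pair among themselves, and the dimers recognise the AP-1 element or the cAMP response element. Several of the genes are immediate early genes, which are transcribed within minutes of a growth factor, cytokine, stress or cAMP signal, and whose short-lived messages fade when the signal adapts. In fat cells the β3-adrenergic receptor raises cAMP, while in leukocytes the same genes respond to inflammatory stimuli.

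Each group had 1 array, so no test was possible, no p-value is given and the number of arrays limits the precision. Intensities are the deposited values after a scaling by factors between 0.999 and 1.001. Values at or below a floor of 173.0 units, the 40th percentile, were treated as not told apart from background, and a fold against such a value is given as at least that fold. Between 59.9% and 60.2% of the probe sets of an array lay above the floor. The measurement error was taken from genes with 2 probe sets above the floor on every array. For day 1 against control it was 0.42 on the log2 scale over 134 genes with a mean under 4 times the floor and 0.28 over 508 brighter genes. A difference between 2 arrays is set below against 3 such errors for that pair of arrays. The class of brightness is that of the gene's mean over all 4 arrays, also where the 2 arrays compared are dimmer. This error holds no variation between animals or pools. All 3 comparisons with control use the same control array.

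At day 1, 4 of the 7 genes were past 2-fold higher than control. Junb was 14.7-fold, Fosl1 at least 8.89-fold, Fos 5.02-fold and Jun 2.45-fold higher, Fosb and Jund were within 2-fold, and Fosl2 was below the floor on both arrays, so that it gave no fold. The 4 genes then parted. At day 3 Fos was still 4.01-fold above control and Junb 2.09-fold, Fosl1 was back below the floor and Jun was 2.17-fold below control. At day 6 Fos, Fosb, Jun and Jund were within 2-fold of control. Junb was at least 1.75-fold lower, a bound that does not settle whether it was past 2-fold, and Fosl1 and Fosl2 were below the floor on both arrays. Of the 6269 genes above the floor on at least 1 array, 7.51% were past 2-fold in the higher and 8.36% in the lower direction at day 1, against 4 and 0 of the 7. A gene under 2 times the floor in control could not be counted as lower against it. This held for Fosl1 and Fosl2, below the floor in control, and for Junb, at 302. Fosl1 passed the floor only through day 1, where it was high. The shares over all genes include such genes too. In RNA of whole fat, more cells that carry a message and more of the message per cell cannot be told apart. At day 3 the shares were 3.80% and 3.25%, against 2 and 1 of the 7, and at day 6 they were 1.72% and 1.63%, against 0 and 0 of the 7 shown to be past 2-fold. With values below the floor set to it, the median log2 change of the 7 genes was 1.29 at day 1, 0.00 at day 3 and -0.23 at day 6, beside -0.02, 0.00 and 0.00 over all genes above the floor.

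**Figure D1:**
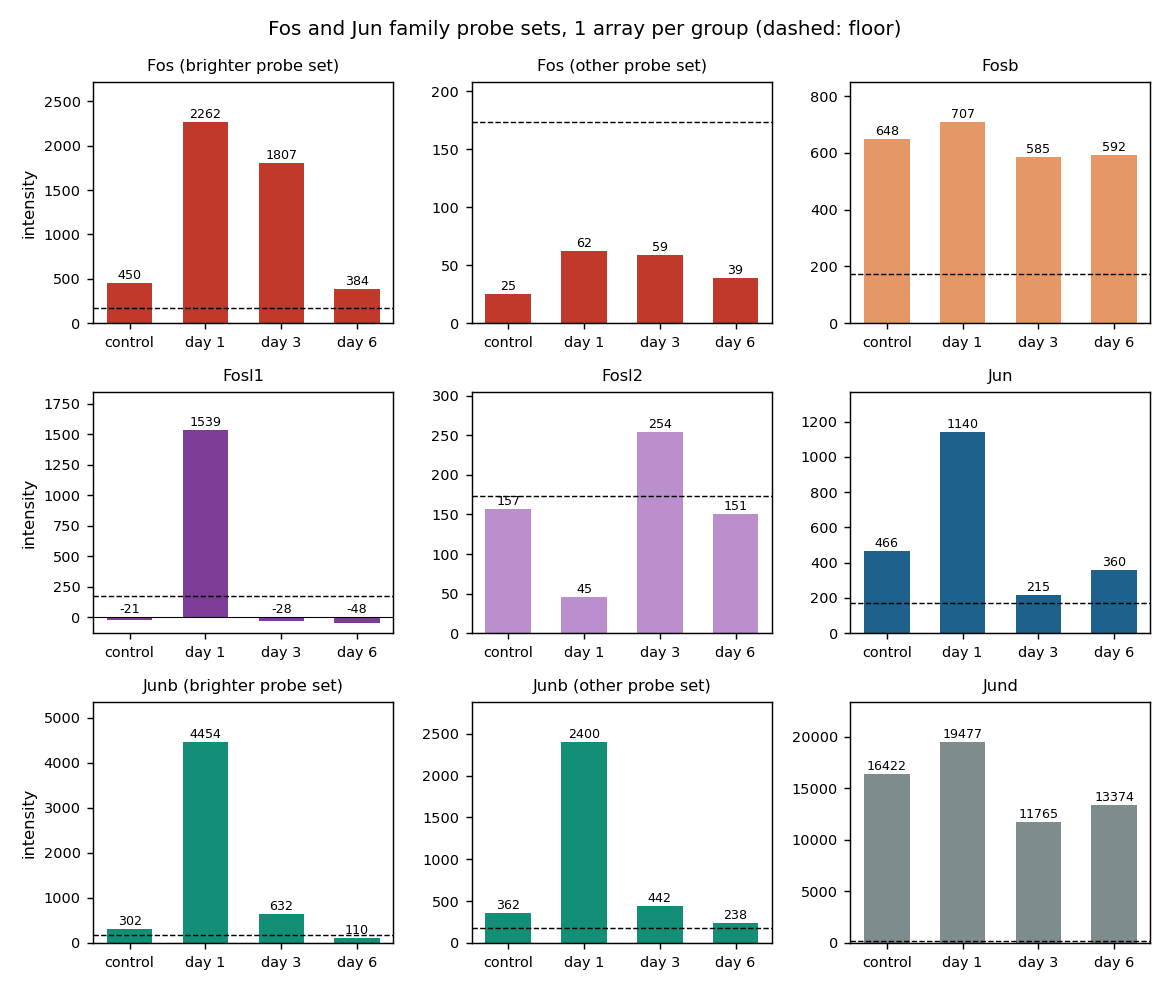
Intensity (y axis, linear, each panel with its own scale) of the 9 probe sets of the Fos and Jun genes on the control array and the arrays of days 1, 3 and 6 (x axis), with 1 bar per array, no error bars and the floor of 173.0 as a dashed line. Fosl1 reached 1539 at day 1 and was below 0 on the other arrays, Fos was at 2262 and 1807 at days 1 and 3, and Jund lay between 11765 and 19477.

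**Figure D2:**
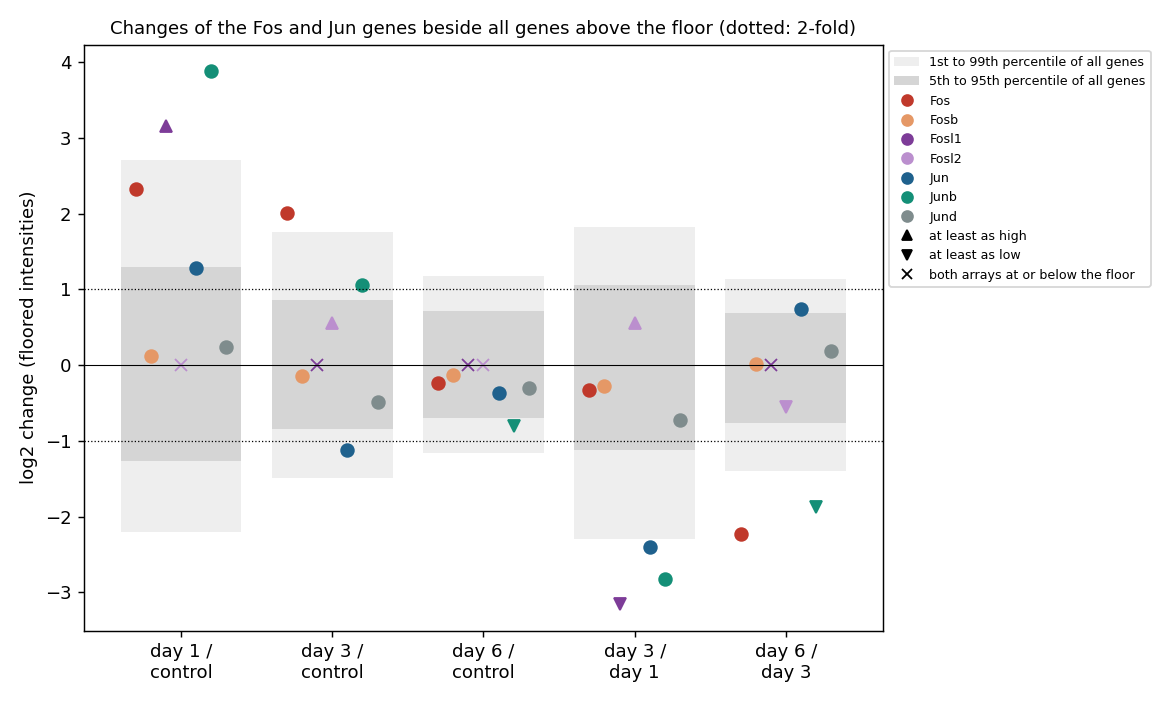
The log2 change of the 7 genes (y axis, points; triangles are bounds and crosses mark genes for which neither array was above the floor) in 5 comparisons of 2 arrays (x axis), over grey bands that hold the 5th to 95th and the 1st to 99th percentile of all 6269 genes above the floor. At day 1 Junb and Fosl1 lay above the 99th percentile of 2.71, at day 3 Fos lay above that of 1.76, and from day 3 to day 6 Fos and Junb lay below the 1st percentile of -1.40.

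The promoter sequences of Fos, Junb and Jun are shown because these genes were 2-fold higher together at day 1; Fosl1 is named only. They are the 150 bases before the start of each gene in RefSeq (GRCm38.p6), read 5′ to 3′ on the strand of the gene: chr12:85473740-85473889 on the plus strand for Fos, chr8:84978749-84978898 on the minus strand for Junb and chr4:95052223-95052372 on the minus strand for Jun. Capitals mark TGACG, the short form of the cAMP response element, the TATA box TATAAA and, in Jun, the element TGACATCA.
Fos: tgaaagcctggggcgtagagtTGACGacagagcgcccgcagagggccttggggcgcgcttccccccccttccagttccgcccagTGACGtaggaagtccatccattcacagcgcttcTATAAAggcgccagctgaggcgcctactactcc
Junb: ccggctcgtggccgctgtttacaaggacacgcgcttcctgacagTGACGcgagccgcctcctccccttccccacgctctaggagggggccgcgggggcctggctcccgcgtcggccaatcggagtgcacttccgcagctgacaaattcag
Jun: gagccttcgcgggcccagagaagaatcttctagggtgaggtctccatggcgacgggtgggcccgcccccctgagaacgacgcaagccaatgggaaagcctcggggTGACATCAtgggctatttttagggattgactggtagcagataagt

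Windows of 250 bases before to 50 after the start were held for 6 of the 7 genes and searched on both strands for motifs. The short form TGACG, which is also part of the full element TGACGTCA, was in the windows of Fos, Junb and Fosb, and in 20.8% of all 32851 windows. Fos held it from 129 and from 66 bases before the start, Junb from 106 and Fosb from 60. The full element, which 1.79% of all windows held, and the AP-1 element TGAGTCA, at 5.20%, were in 0 of the 6 windows, as were the CArG box (1.63%) and the GAS element TTCNNNGAA (8.30%). Bases further than 250 before the start were not searched, so a promoter element that lies there would be missed. TGACATCA, known as an AP-1-like element of the Jun promoter and searched after the sequences were read, lay from 45 to 38 bases before the start of Jun and in 3.62% of all windows. TATAAA was in the windows of Fos, from 33 bases before the start, and of Junb, from the first base after it, and in 13.6% of all windows. The GC box GGGCGG was in Fos, Jun, Fosb and Fosl2 (35.7% of all windows), the CAAT box CCAAT in Jun and Junb (37.4%), and the NF-kB element in Fos, Fosb and Fosl2 (5.09%). In the window of Jund none of these letters was found. Of the 250 bases before the start, G and C made up 58.4% in Fos, 66.4% in Junb and 61.2% in Jun. They made up 68.8% in Fosb, 64.4% in Fosl2 and 47.6% in Jund, beside a median of 52.4% over all windows. The shares over all windows are not matched for this content. These matches describe the letters of the windows and show no binding.

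**Figure D3:**
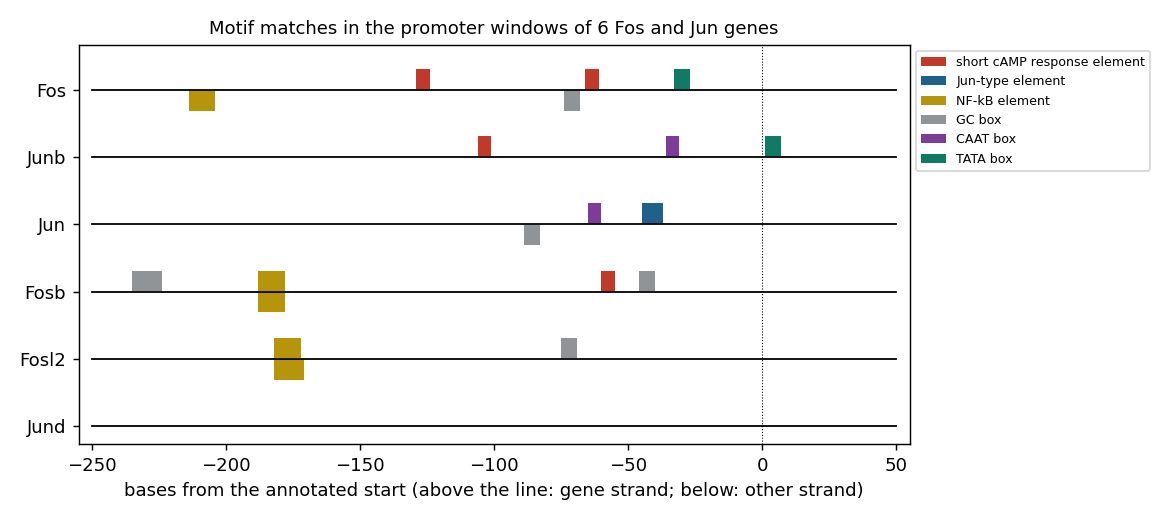
Positions of the motif matches (coloured blocks; above each line on the strand of the gene, below it on the other strand) in the promoter windows of 6 genes, with the distance in bases from the annotated start on the x axis. Fos, Junb and Fosb each hold a short cAMP response element before the start, Jun holds the Jun-type element TGACATCA, and the line of Jund carries no block.

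Fos, the founding member and the partner of Jun proteins in the classical AP-1 dimer, had intensities of 450 in control, 2262 at day 1, 1807 at day 3 and 384 at day 6. Days 1 and 3 were high and control and day 6 low. The difference between days 1 and 3 was 1.25-fold, within the 1.82-fold that 3 errors span, and the difference between control and day 6 was 1.17-fold, within 1.66-fold. Between day 3 and control, the neighbours across the gap, it was 4.01-fold, beyond the 1.65-fold of 3 errors. At day 6 Fos was 4.70-fold lower than at day 3, with a log2 change of -2.23, below the 1st percentile of all genes at -1.40. Its other probe set read 25, 62, 59 and 39 in the same order of arrays, below the floor on all 4, and so gave no fold; with the mean of both probe sets the log2 change of Fos was 1.16 at day 1 and 1.00 at day 3.

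Fosl1 encodes Fra-1, a Fos protein that lacks the strong activation domain of Fos. Its intensities were -21 in control, 1539 at day 1, -28 at day 3 and -48 at day 6. It stood above the floor at day 1 alone, at least 8.89-fold above each of the other arrays. Since values at or below the floor have no order, control, day 3 and day 6 cannot be ranked. The bound moved with the floor, from a log2 change of at least 1.52 with the floor at the 60th percentile to at least 4.73 with the floor at the 25th.

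Fosb, whose truncated splice form accumulates under repeated stimulation in neurons, read 648, 707, 585 and 592 in control and at days 1, 3 and 6. The arrays lay close together: the brightest, day 1, was 1.21-fold above the dimmest, day 3, against 2.12-fold for 3 errors. Fosl2, which encodes Fra-2, read 157, 45, 254 and 151. It was above the floor at day 3 alone, at least 1.47-fold over the other arrays, a bound too low to set against 3 errors. With the floor at the 25th percentile Fosl2 had a log2 change of -1.44 at day 1, a difference that lay wholly below the floor of 173.0 units.

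Junb, a Jun protein induced by cytokines and growth factors and a weaker activator than Jun, had intensities of 302 in control, 4454 at day 1, 632 at day 3 and 110 at day 6. Day 1 stood far above the rest, and the order was day 1, day 3, control, day 6. Junb was 7.05-fold lower at day 3 than at day 1, against 1.82-fold for 3 errors. Day 3 was 2.09-fold above control, against 1.65-fold, and day 6 was at least 1.75-fold below control, against 1.66-fold. Junb counts as a brighter gene through its day 1 value, while control, day 3 and day 6 were each under 4 times the floor. By the error of the dimmer genes, 3 errors span 2.05-fold for day 3 and 1.985-fold for day 6. Day 3 is then barely past 3 errors, and the bound of day 6 lies within them. The other probe set of Junb, made from the same source record, read 362, 2400, 442 and 238 and put the arrays in the same order. It was 6.63-fold higher at day 1 and 5.43-fold lower at day 3 than at day 1. Day 3 and day 6 by this probe set were 1.22-fold above and 1.52-fold below control, both within 3 errors. The 2-fold level of Junb at day 3 thus rested on 1 of its 2 probe sets, and with the mean of both the log2 change was 0.68. When the floor was raised to the 60th percentile it was 0.24.

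Jun, the protein that c-Jun N-terminal kinases activate and that also forms homodimers, had intensities of 466 in control, 1140 at day 1, 215 at day 3 and 360 at day 6. Day 1 was the high array and day 3 the low one. Day 1 lay 2.45-fold above control, just past the 2.40-fold of 3 errors at this brightness, and day 3 lay 2.17-fold below control, just past 2.05-fold. Jun was 5.30-fold lower at day 3 than at day 1, against 2.12-fold. The neighbours control and day 6 differed by 1.29-fold and day 6 and day 3 by 1.67-fold, both within 3 errors. With the floor at the 60th percentile control and day 3 could not be told apart for Jun, and the day 3 difference was 0.00.

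Jund, which most cells express without stimulation, read 16422, 19477, 11765 and 13374 in control and at days 1, 3 and 6. Neighbours in this order of brightness differed by 1.14-fold to 1.23-fold. The brightest array, day 1, was 1.66-fold above the dimmest, day 3, within the 1.82-fold of 3 errors. Levels of different genes were not set against each other, since each probe set responds with its own strength.

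Between the treated arrays, which do not involve the control, 3 of the 7 genes (Fosl1, Junb and Jun) were past 2-fold lower at day 3 than at day 1 and 0 higher. Over all genes above the floor 6.30% were lower and 5.81% higher. Fosl1 was at least 8.89-fold, Junb 7.05-fold and Jun 5.30-fold lower, and each had a log2 change below the 1st percentile of all genes at -2.30. From day 3 to day 6, Fos and Junb were at least 2-fold lower, by 4.70-fold and by at least 3.65-fold, and 0 of the 7 were higher, beside 2.65% and 1.5% of all genes. Junb by its other probe set was 1.86-fold lower over the same interval. Fos was thus the one of the 4 genes with its 2-fold decline after day 3 alone, while Junb was 2-fold lower in both intervals.

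Genes whose profile was most like that of Fos, Junb and Jun were found by the root mean square difference of the 3 log2 changes against control, among 5294 other genes and over 4 arrays. Nearest to Fos were Lst1, Tlr6 and Cd53, with differences of 0.29, 0.36 and 0.37. Lst1 read 506, 3214, 1990 and 561 in control and at days 1, 3 and 6. Tlr6 read 124, 962, 472 and 107, so that its changes from a control below the floor are bounds. For Fosl1, above the floor on 1 array alone, the measure has no meaning and no gene is given. Nearest to Junb were Ccl7, Il4ra and Ccl2, at 0.12, 0.29 and 0.33, and Ccl7 read 329, 4492, 743 and 83, below the floor at day 6 as Junb was. Nearest to Jun were Slc16a1, Dusp1 and Anxa8, at 0.16, 0.25 and 0.27, and Dusp1 read 5052, 11757, 3128 and 3953. Over 4 arrays such a likeness is a description of these pools.

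Lists of genes around the Fos and Jun genes are set below against 7.51% of all genes higher and 8.36% lower at day 1. At day 3 the shares to set them against are 3.80% and 3.25%, and at day 6 1.72% and 1.63%. In the lists too, a gene under 2 times the floor in control could not be counted as lower. Of 19 MAP kinase pathway genes above the floor, 3 were past 2-fold higher at day 1 and 1 lower, the median log2 change being 0.19, and 0 were past 2-fold on days 3 and 6. Map3k8, a kinase of inflammatory signalling, was at least 2.97-fold higher, with its other probe set below the floor on every array. Mapkapk2, a kinase downstream of p38, read 4203 in control and 9783 at day 1, and Map2k4, which activates c-Jun N-terminal kinases, was 2.16-fold higher. The Map2k4 difference lay within the 2.40-fold that 3 errors span for dimmer genes at day 1. Map2k5 was 2.49-fold lower. Of 15 genes listed as transcription factors and coactivators that regulate Fos and Jun, 0 were higher and 1 was lower at day 1. The lower one was the coactivator Crebbp, at 2.22-fold, also within the 2.40-fold of 3 errors. On days 3 and 6, 0 were past 2-fold. The medians of this list were 0.09, -0.03 and 0.00. Whether each listed gene regulates Fos or Jun was not tested. A message level says nothing of phosphorylation, through which these kinases and factors are switched.

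Among relatives of AP-1 that share the basic leucine zipper, 18 were above the floor, and 4 were higher and 0 lower at day 1, the median log2 change being 0.76. At day 3 1 was higher and 0 lower, with a median of 0.00. Cebpb, a C/EBP factor of fat cell differentiation and of inflammation, went from 3550 to 15215, which is 4.29-fold, and was at 4878 and 4824 on days 3 and 6. Atf3, a stress-induced partner of Jun proteins, read 833, 2198, 1737 and 1290 and was 2.64-fold higher at day 1 and 2.08-fold higher at day 3. One other probe set of Atf3 read 110, 658, 367 and 108, and another was below the floor on every array. The repressor Bach1 was 2.72-fold and the blood cell factor Nfe2 at least 2.22-fold higher at day 1, the other probe set of Bach1 being below the floor on every array. The bound of Nfe2 was under the 2.40-fold that 3 errors span for dimmer genes. At day 6 0 were higher and 1, Atf5, was 2.07-fold lower.

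Of 21 feedback genes above the floor, 7 were higher and 0 lower at day 1, with a median of 0.40; 1 was higher and 2 lower at day 3, and 0 higher and 2 lower at day 6. Gadd45b, a stress gene that acts on MAP kinase signalling, read 127 in control and 2134 at day 1 and was at least 12.3-fold higher, while its other probe set read 105 and 960. Ier3 was 9.0-fold, the MAP kinase phosphatase gene Dusp16 4.82-fold and Zfp36, whose protein destabilises cytokine messages, 4.02-fold higher. The other probe set of Dusp16 was below the floor on every array. Gadd45g was 2.60-fold lower at day 3 and 2.19-fold lower at day 6, Spred2 2.34-fold lower at day 3 and Gadd45a 3.63-fold lower at day 6. Of 24 other cAMP and immediate early genes, 5 were higher and 0 lower at day 1, with a median of 0.58. They included Nfkbia, the inhibitor of NF-kB, at 4.78-fold, the clock gene Per1 at 3.46-fold, the orphan nuclear receptor gene Nr4a1 at 2.57-fold and Myc at at least 2.58-fold. Rgs2, a regulator of G protein signalling, followed another course, with 493, 631, 1318 and 1615. At day 3, 1 of the 24 was higher and 2 lower, and at day 6 2 were higher and 0 lower, with medians of 0.00 on both days.

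Of 42 genes above the floor that are commonly cited as AP-1 targets, 19 were higher and 0 lower at day 1, 10 higher and 1 lower at day 3, and 3 higher and 1 lower at day 6, with medians of 0.95, 0.09 and 0.00. Of the 42, 27 were above the floor on all arrays. Il1b, Il6 and Ptgs2 were among those above it at day 1 alone, which could not have been counted as lower. The list was drawn up with earlier results of these arrays known, so its direction is no independent evidence. At day 1 Arg1, Il1b, Cxcl2 and Cxcl1 were at least 83.3-fold, 75.8-fold, 55.5-fold and 51.6-fold higher. At day 3 Arg1 was at least 16.9-fold, the metalloproteinase inhibitor gene Timp1 6.55-fold, the heme oxygenase gene Hmox1 3.56-fold and the chemokine gene Ccl2 3.05-fold higher. The other probe set of Timp1 was below the floor on every array. Hmox1 read 2513, 16629, 8956 and 5061 and was still 2.01-fold above control at day 6. Mmp12, a macrophage elastase, read 859, 1227, 1366 and 5620 and Mmp9 353, 4438, 155 and -106, so that these 2 metalloproteinase genes were highest on different days. The other probe set of Mmp9 read 50, 222, 63 and 70.

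**Figure D4:**
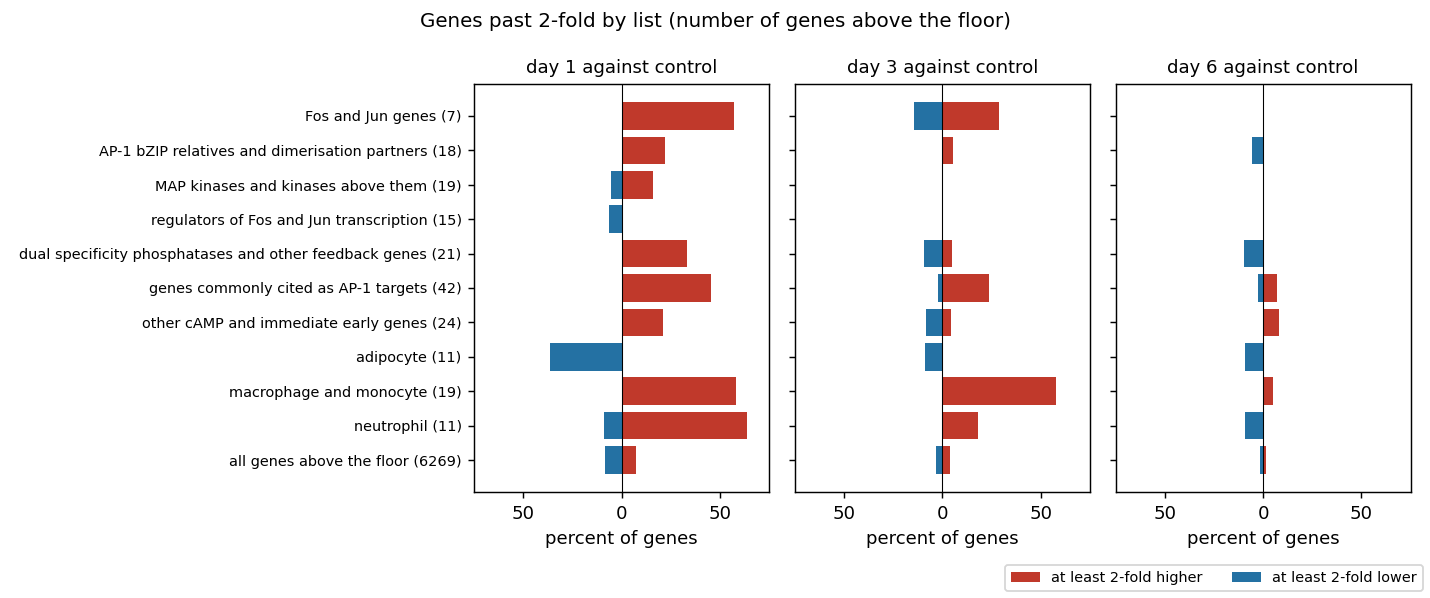
Percent of the genes above the floor (x axis; right, at least 2-fold higher; left, at least 2-fold lower) for the Fos and Jun genes, 6 gene lists, 3 cell type marker lists and all genes (y axis, with the number of genes), for days 1, 3 and 6 against control. At day 1, 4 of 7 Fos and Jun genes, 19 of 42 AP-1 target genes and 7 of 11 neutrophil markers were higher, and at day 6 no bar is drawn for the Fos and Jun genes, among which Junb had only a bound. Genes under 2 times the floor in control could not be counted as lower.

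Markers of the cell types in the tissue were counted in the same way, beside 7.51%, 3.80% and 1.72% of all genes higher and 8.36%, 3.25% and 1.63% lower at days 1, 3 and 6. Of 11 neutrophil markers above the floor, 7 were higher and 1 lower at day 1, 2 higher and 0 lower at day 3, and 0 higher and 1 lower at day 6; their summed intensity was 7242, 84838, 9216 and 4731 in control and at days 1, 3 and 6. S100a8 and S100a9 made up most of the day 1 sum, with 40305 and 26727, while Mpo and Ngp were not above the floor on any array. Lcn2 made up most of the control sum and was the marker lower at day 6. It read 4088, 11028, 4419 and 1167, and by its other probe set 277, 273, 368 and 429. Of the 11, 5 were above the floor on all arrays. Cxcr2, Fpr2, Ly6g and Mmp8 were above it at day 1 alone, so at day 1 they could not have been counted as lower. Of 19 macrophage and monocyte markers 11, 11 and 1 were higher on the 3 days and 0 lower, and their sum was 72325, 159590, 163205 and 85663. Of 11 fat cell markers 4 were lower at day 1 and 1 each at days 3 and 6, and 0 were higher; Adipoq read 52042, 25374, 42596 and 55274, so that this marker of the labelled tissue was bright on every array. Fosl1, Junb, Jun and Fos had their highest value on the array where the neutrophil sum was highest, and Fos was also high at day 3, the other array where the macrophage sum was high. The part of these cells in the Fos and Jun values was not tested.

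The epididymis genes Lcn5 and Adam7 read 3321 and 2654 in control, 63 and 200 at day 1, 7 and 251 at day 3, and 8029 and 1846 at day 6, so that both were high in control and at day 6 and at most little above the floor at days 1 and 3. Star, of steroid-producing cells, read 18, 7991, 267 and -30, and by its other probe set 177, 1398, 365 and 277. The other genes of such cells on this list, Cyp11a1, Cyp17a1, Hsd3b1 and Insl3, were not above the floor on any array. Of the 7 epididymis, testis and germ cell genes above the floor, 1 was higher and 2 lower at day 1, 0 higher and 2 lower at day 3, and 1 higher and 0 lower at day 6. The sums of this list were 7906, 10164, 2366 and 12640, and Star made up most of the day 1 sum. Of 10 endothelial markers 3, 2 and 0 were lower on the 3 days, of 6 mesothelial markers 2, 3 and 3, and of 11 fibroblast markers 3, 0 and 0, with 1 fibroblast marker higher at day 1. T and NK cell markers had 4 members above the floor, with Cd3e, Cd3d and Cd3g at or below it on every array, and 1 higher on days 1 and 3. Of 6 B cell markers 1 was higher and 1 lower on each of days 1 and 3, and of 4 skeletal muscle markers 1 was lower on each day; in lists this short 1 gene is a large share. The part of these in the Fos and Jun values was not tested.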

How the data were processed

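One Affymetrix mouse expression array per group gave 12488 probe sets, of which 66 control probe sets were left out of counts. The values are linear intensities, whole numbers as deposited, of which 12.2% to 12.4% per array are at or below 0; which software, background step and normalization the authors used is not stated in the sources used here. The deposited columns share their quartiles (75th percentile 1199), so each change is relative to a common distribution.

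Each array was multiplied so that its mean, trimmed below the 2nd and above the 98th percentile, was the same on all; values were raised to the floor at the 40th percentile and compared as log2 values with Python 3.11.15. No test was run. For genes with more than 1 probe set, the brightest on average was used. The array's annotation table gave 1 symbol for 10833 probe sets and several for 396, and did not list 1193. Identifiers of 10817 matched RefSeq, and 0 symbols changed.

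The members and lists were chosen with earlier results of these data known. Named list genes are, per list and day, up to 4 past 2-fold with the largest change and a brighter value of at least 346.0, 2 times the floor. The 3 nearest genes were taken for each Fos or Jun gene past 2-fold and above the floor on more than 1 array, a limit set after seeing the data. The fold count was run on simulated data whose noise was smaller than the errors given above. Changes were simulated only in probe sets brighter than 2 times the floor, so changes near the floor were not covered. Other floors, scalings, thresholds and a mean over probe sets were tried. Proteins were not analysed here.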

Additional observations from a re-analysis of the deposited data

How the results depend on the processing

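Of 15 counts of Fos and Jun genes under other floors, thresholds and the mean over probe sets, 11 stayed within 1.5 times the reported count. At day 1 the same 4 genes, Fos, Fosl1, Jun and Junb, were higher with both other floors (joined by Fosl2, lower, at the 25th percentile), with the mean of all probe sets and at 1.5-fold; at 3-fold Jun dropped out. At day 3 the count of 3 became 1, Fos alone, under a 60th percentile floor and also at a threshold of 3-fold. At day 6 the count of 0 became 1, Junb lower, under a 25th percentile floor and also at a threshold of 1.5-fold. Of 63 single-gene changes under other floors and the mean over probe sets, 15 moved by more than 1 error, and no change past 2-fold turned its sign. Of 192 counts of other lists under the 2 other floors, 45 moved by over 1.5 times. Among them, the other immediate early genes higher at day 1 were 8 under a 25th percentile floor and 3 under a 60th percentile one against 5, the MAP kinase pathway genes higher at day 1 were 1 at the 60th against 3, and the AP-1 targets higher at day 3 were 5 at the 60th against 10. No scaling and a common 75th percentile leave the deposited values nearly as they are and so test nothing. No paired analysis was possible because each group has 1 array, and no array could be left out for the same reason. Signals near or below background limit Fosl2, the other probe set of Fos and the low values of Fosl1.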
